A study of Mus musculus with 6 samples.

Results

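The 45 genes described here are all those in the deposited tables whose symbol begins with Nduf, out of 24346 genes listed per library, and were taken by name alone. They encode 7 core and 29 accessory subunits of respiratory complex I and 7 assembly factors of the Ndufaf series. The remaining 2, Ndufa4 and Ndufa4l2, carry the family name but encode a subunit of complex IV and its paralogue. Ndufb1, Ndufaf8 and the subunits encoded by mitochondrial DNA were not analysed here. The RNA came from CD11c+ dendritic cells taken from mouse spleen by magnetic sorting on an autoMACS. Cells of 3 libraries were treated with IL-33, an alarmin cytokine of the IL-1 family, and cells of the other 3 with PBS, its vehicle. The sources used here do not give the strain, age, dose, duration, or whether the animal or a culture was treated. The labels do not tie libraries to separate animals, so the p-values rest on a spread between libraries that may be technical only.

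Complex I is the entry point of the respiratory chain. Its matrix arm takes electrons from NADH through a flavin and a row of iron-sulfur clusters (the N module) and hands them to ubiquinone (the Q module), while its membrane arm pumps protons. The core subunits carry out this chemistry and are conserved from bacteria, whereas the accessory subunits surround and stabilise them. Assembly factors bind intermediates during construction and leave before the enzyme is complete. In dendritic cells, shifts between respiration and glycolysis accompany activation.

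Depths relative to PBS replicate 1, read from the 1-fragment steps between values of at most 0.3 FPKM, ranged from 0.946 to 1.21 with the groups mixed. They stand for sequencing depth only if values were scaled to mapped fragments, which is not stated. The FPKM totals separated the groups, at 778391 to 841884 with IL-33 and 614522 to 641412 with PBS. Log2 values of all tested genes correlated at 0.969 to 0.982 between libraries of a group and at 0.931 to 0.954 between groups (Pearson, across genes). All 10 markers of dendritic cells on the list were tested and detected in each library. H2-Ab1, an MHC class II gene that B cells and macrophages also express, was at 7144 to 8035 FPKM with IL-33 and 4396 to 4833 FPKM with PBS. The other 9 markers summed to 896 to 942 FPKM with IL-33 and 977 to 1081 FPKM with PBS. Of the 10, Itgax (which encodes CD11c) and H2-Ab1 rose and 6 fell (Flt3, Zbtb46, Xcr1, Clec9a, Clec4a4 and Siglech). The shares over all tested genes were 28.0% called higher and 25.5% called lower (limma, adjusted p under 0.05).

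Transcripts of complex I subunits were more abundant with IL-33, and those of the Ndufaf assembly factors showed no called change. Of the 36 subunits, 34 rose, none fell and 2 did not pass (limma, adjusted p under 0.05), where 28.0% of all 11518 tested genes were called higher and 25.5% lower. All 36 passed the filter on low values. The folds of the 34 ran from 1.26 to 1.95 with a median of 1.53, and their adjusted p from 0.000558 to 0.0302. The median log2 change was 0.59 over the subunits and 0.01 over all tested genes. In 34 subunits every IL-33 library stood above every PBS library, an order found in 32.7% of tested genes. None of the 7 Ndufaf genes passed in either direction, and their median log2 change was -0.04.

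**Figure D1:**
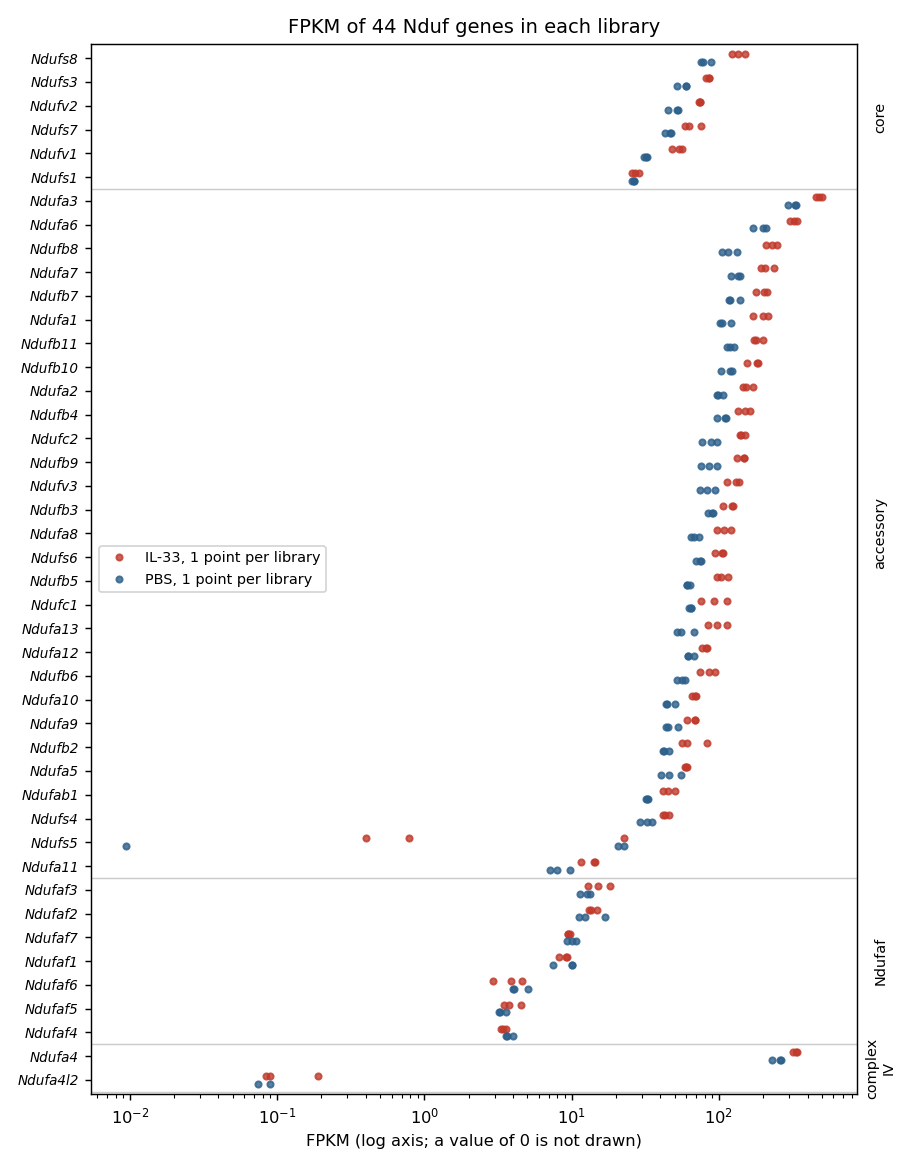
FPKM (log axis) of 44 of the 45 Nduf genes in the 3 IL-33 libraries (red) and the 3 PBS libraries (blue), grouped by role and ordered by mean level. The red points lie to the right of the blue for all subunits drawn except Ndufs1 and Ndufs5, while the colours mix for 6 of the 7 Ndufaf genes.

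Promoter sequences of the members were examined for short known sites. RefSeq promoters of build GRCm38.p6, from 250 bases before to 50 after the start, were matched by symbol to 39 of the 45 genes, 32 subunits and 6 Ndufaf genes among them. They were searched on both strands for short forms of 3 sites known from genes of the respiratory chain. These are the NRF1 site (GCGCNTGCG, which can overlap its own reverse complement), the ETS site bound by GABPA (CCGGAAG) and the YY1 site (AAGATGGC, which can contain a start codon). NRF1 letters were in 9 of 32 subunit promoters (28.1%), beside 15.8% of tested genes and 7.12% of all genes with a promoter. ETS letters were in 4 (12.5%, beside 21.2% and 9.93%), and YY1 letters in 7 (21.9%, beside 5.66% and 3.19%). Of the 32 subunit promoters 13 held none of the 3. Of the 6 Ndufaf promoters 2 held NRF1 letters, 1 ETS letters and none YY1 letters. The letters were chosen after matches of several variants had been seen, and a match is a description, not a bound site.

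To show this, 3 promoters of subunits that rose are set beside 2 of assembly factors that did not pass, from 120 bases before to 30 after the start, 5′ to 3′ on the strand of the gene, with matches in capitals. The NRF1 letters appear in Ndufa8 at chr2:36049309-36049458 (minus strand) and in Ndufaf4 at chr4:24897963-24898112 (plus strand). The ETS letters appear in Ndufs3 at chr2:90904692-90904841 and in Ndufaf1 at chr2:119662805-119662954, both on the minus strand, and the YY1 letters in Ndufa3 at chr7:3617253-3617402 (plus strand).
Ndufa8: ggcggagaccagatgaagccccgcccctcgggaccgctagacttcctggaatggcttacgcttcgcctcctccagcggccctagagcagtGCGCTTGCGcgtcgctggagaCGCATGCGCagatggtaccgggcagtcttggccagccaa
Ndufaf4: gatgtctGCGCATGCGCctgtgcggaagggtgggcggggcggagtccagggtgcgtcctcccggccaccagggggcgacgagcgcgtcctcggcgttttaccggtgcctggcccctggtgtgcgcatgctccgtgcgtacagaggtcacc
Ndufs3: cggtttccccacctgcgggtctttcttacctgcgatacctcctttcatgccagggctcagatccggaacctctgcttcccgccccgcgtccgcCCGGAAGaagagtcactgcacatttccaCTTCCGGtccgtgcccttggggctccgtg
Ndufaf1: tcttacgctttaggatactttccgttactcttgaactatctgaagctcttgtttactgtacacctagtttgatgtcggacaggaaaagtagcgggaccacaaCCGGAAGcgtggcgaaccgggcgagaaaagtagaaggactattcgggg
Ndufa3: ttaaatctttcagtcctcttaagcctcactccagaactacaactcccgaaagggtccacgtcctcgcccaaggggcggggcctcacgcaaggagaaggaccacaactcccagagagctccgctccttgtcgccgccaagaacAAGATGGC

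The NRF1 and ETS letters occurred in promoters of both groups. Ndufa8, with 2 NRF1 matches near its start, was at 121.5, 107.9 and 97.6 FPKM with IL-33 and 64.7, 67.3 and 73.0 FPKM with PBS (log2 change 0.66, SE 0.09). Ndufaf4, with NRF1 letters farther upstream, had a change of -0.09. The other Ndufaf gene with NRF1 letters, Ndufaf5, holds them near its start (from base 17) and did not pass either (0.18). Ndufs3 (0.56) and Ndufaf1 (-0.04) both hold ETS letters. Among subunits other than Ndufs5 the median change was 0.54 with NRF1 letters and 0.59 without, 0.62 and 0.59 for ETS letters, and 0.51 and 0.61 for YY1 letters. All 7 subunits with YY1 letters rose, as did 34 of all 36 subunits. Whether the letters or their position go with the change was not tested.

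The shares of genes called higher have to be read against the level and length of the transcripts. Subunit messages are abundant and short, with a median of 85.9 FPKM and 873 bases, against 12.4 FPKM and 2745 bases over all tested genes. Over all tested genes, abundant and short transcripts were called higher more often than others. Among tested genes of 100 FPKM or more, 66.3% were called higher with a median log2 change of 0.44, and all 16 subunits at that level rose with a median of 0.66. Between 40 and 100 FPKM the share was 50.9% and the median 0.23, beside 15 of 15 subunits and 0.56. From 10 to 40 FPKM 28.0% of genes were called higher with a median of 0.03, and 3 of 5 subunits rose with a median of 0.42. Among genes that had both at least 40 FPKM and a transcript under 2000 bases, 71.0% were called higher with a median of 0.45, and 29 of 29 subunits rose with a median of 0.62. By length alone, 53.6% of tested genes were called higher under 1000 bases (21 of 22 subunits), 45.9% from 1000 to 2000 (10 of 10), 24.8% from 2000 to 4000 (3 of 4) and 9.68% from 4000 upwards, a range with no subunit. Across all tested genes the change correlated with log2 transcript length at -0.32 (Pearson, across genes, which are not independent replicates).

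**Figure D2:**
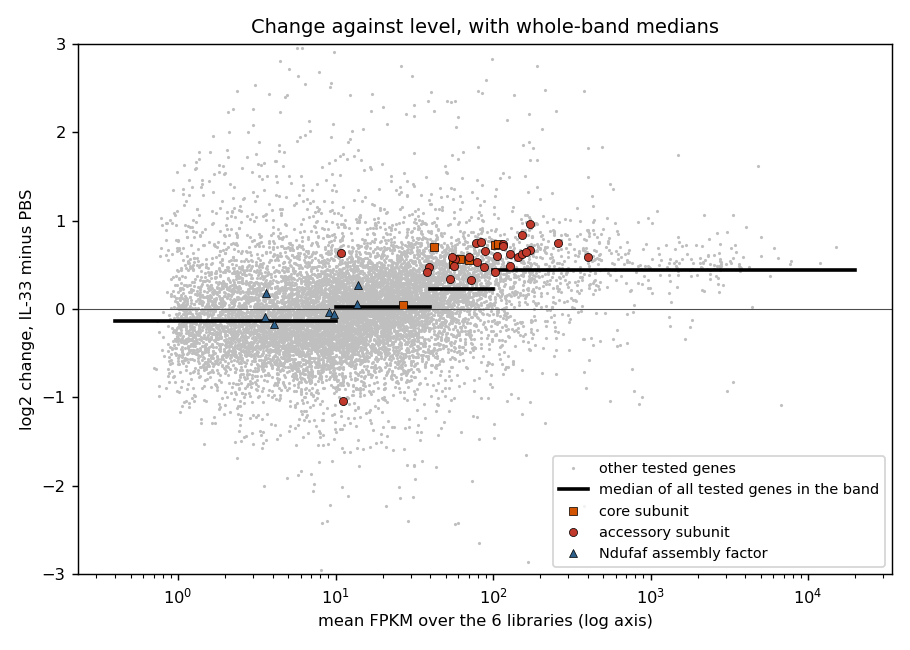
Log2 change (IL-33 minus PBS) against mean FPKM over the 6 libraries (log axis) for all tested genes (grey; 40 lie beyond the range of -3 to 3 drawn), with the subunits and Ndufaf genes marked. Black bars are medians of all tested genes from 0 to 10, 10 to 40, 40 to 100 and at least 100 FPKM; they climb from -0.13 to 0.44, most subunits lie above the bar of their band, and all 7 Ndufaf genes are under 40 FPKM.

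The size of the rise depended on how the libraries were scaled. With libraries rescaled to equal FPKM totals, 22 subunits were higher and 1 lower, and over all tested genes 11.1% were higher and 50.7% lower. The median over all tested genes moved to -0.29 under that scaling and the subunit median to 0.25, a distance of 0.54 compared with 0.58 as deposited. Quantile normalization left 27 subunits higher with a median of 0.32 (22.1% of all genes higher, 25.0% lower), and cyclic loess 28 with 0.31 (23.7% higher, 23.0% lower). After trends with transcript length and GC content were removed, 24 were higher with a median of 0.29 (22.3% of all genes higher, 22.7% lower). The 19 subunits called higher under every setting included the core genes Ndufs8, Ndufv1 and Ndufv2.

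**Figure D3:**
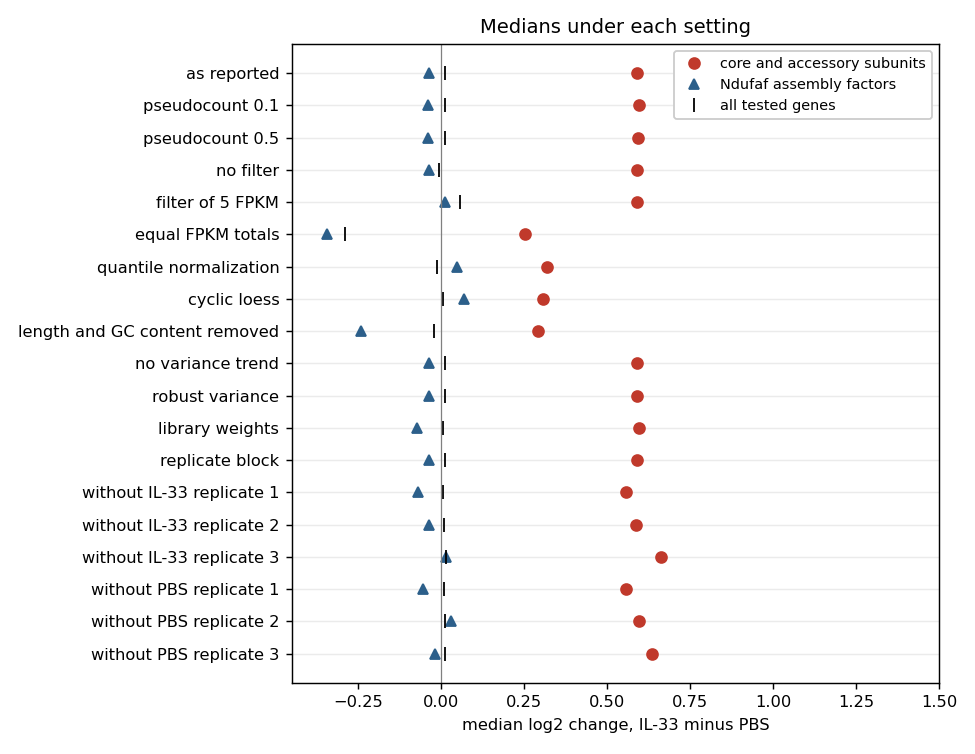
Median log2 change (IL-33 minus PBS) of the 36 subunits (red), the tested Ndufaf genes (blue triangles) and all tested genes (black ticks) as reported and under 18 other settings. The subunit median stayed between 0.25 and 0.66 and exceeded that of all tested genes by 0.30 to 0.65.

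Of the 7 core subunits, 6 rose. Ndufv1 holds the flavin that accepts electrons from NADH. Its level was 56.6, 53.6 and 48.2 FPKM in IL-33 replicates 1, 2 and 3 and 32.7, 31.9 and 31.1 FPKM in the PBS replicates. The groups were well apart, and the log2 change was 0.71 (SE 0.08, n = 3 per group, adjusted p = 0.000611). Its partner in the N module, the iron-sulfur protein Ndufv2, stood at 73.7, 73.9 and 74.1 FPKM with IL-33 and at 44.95, 52.7 and 51.6 FPKM with PBS. The 3 IL-33 values of Ndufv2 were nearly identical, and the log2 change was 0.56 (SE 0.08, adjusted p = 0.00125).

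Ndufs8, an iron-sulfur subunit of the Q module (chromosome 19, 3908863 to 3912774, mm10), was at 150.2, 134.5 and 122.0 FPKM with IL-33 and 78.1, 75.6 and 88.6 FPKM with PBS (log2 change 0.74, SE 0.10). Its change was the largest of the core genes, and the groups did not overlap. Ndufs3, which helps to hold the Q module together, was at 85.9, 85.8 and 81.2 FPKM against 51.6, 59.9 and 59.6 FPKM, with no overlap (log2 change 0.56, SE 0.08). Its call was lost after correction for length and GC content (0.19, adjusted p = 0.0566). Ndufs7, which carries the last iron-sulfur cluster before ubiquinone, was at 75.3, 62.6 and 58.8 FPKM against 47.6, 42.8 and 46.3 FPKM. Its call (log2 change 0.51, SE 0.10) was lost with equal totals (0.18, adjusted p = 0.12) and after that correction (0.15, adjusted p = 0.165).

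Ndufs1 (chromosome 1, 63143596 to 63176833, mm10), the large subunit that carries several iron-sulfur clusters of the N module, was the core gene that did not pass. It stood at 28.8, 25.9 and 27.1 FPKM with IL-33 and at 25.9, 26.4 and 26.6 FPKM with PBS, so the groups overlapped. The log2 change was 0.05 with a 95% interval of -0.10 to 0.20 (SE 0.07, adjusted p = 0.533). It turned to -0.28 with equal totals, where it was called lower (adjusted p = 0.00716), and to -0.03 with quantile normalization and cyclic loess. Ndufs1 has the longest transcript of the tested subunits at 2626 bases and the lowest level of the core genes.

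**Figure D4:**
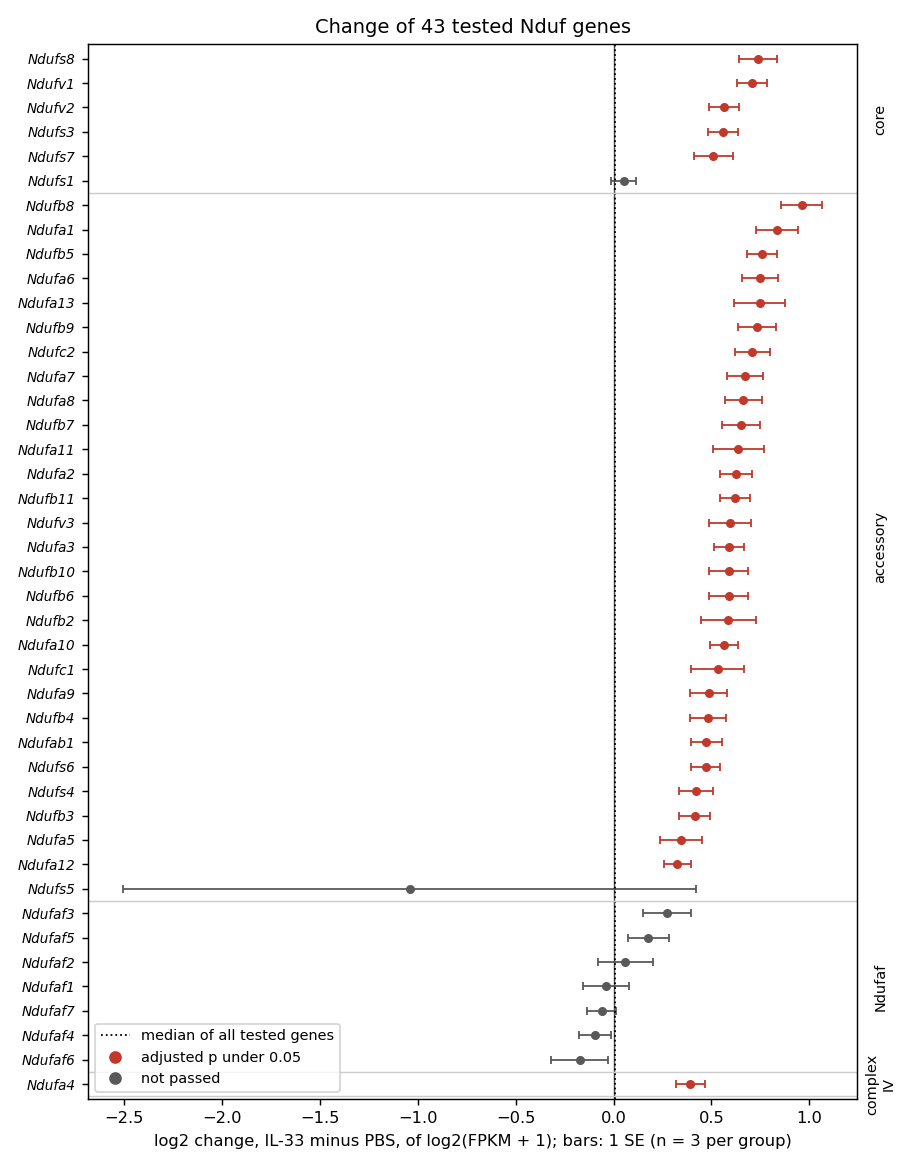
Log2 change (IL-33 minus PBS, bars: 1 SE, n = 3 per group) of 43 of the 44 tested Nduf genes by role, with genes of adjusted p under 0.05 in red and the median of all tested genes dotted. The called subunits lie between 0.32 (Ndufa12) and 0.96 (Ndufb8), and the Ndufaf genes scatter from -0.17 to 0.27.

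The accessory subunits rose in 28 of 29 cases with a median log2 change of 0.59. By position in the enzyme, core genes included, the medians were close: 0.56 for the N module (8 of 9 rose), 0.56 for the Q module (7 of 7), 0.64 for the proximal membrane arm (8 of 9) and 0.60 for the distal membrane arm (10 of 10). Ndufab1, the mitochondrial acyl carrier protein, sits in both arms and rose by 0.47 (SE 0.08).

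The largest change was that of Ndufb8 (chromosome 19, 44548572 to 44555440, mm10), a distal-arm subunit often probed as a marker of assembled complex I. It reached 247.7, 228.1 and 209.2 FPKM with IL-33 and 104.3, 114.6 and 132.3 FPKM with PBS, 1.95-fold more (log2 change 0.96, SE 0.10, n = 3 per group, adjusted p = 0.00066). Its lowest IL-33 library was far above its highest PBS library. Ndufb5 of the same arm had the smallest adjusted p of all subunits. It was at 115.9, 104.0 and 96.8 FPKM against 61.2, 61.1 and 63.5 FPKM (log2 change 0.76, SE 0.08, adjusted p = 0.000558). Ndufb9, also in the distal arm, was at 148.5, 148.6 and 133.6 FPKM against 76.1, 85.9 and 96.5 FPKM (0.73, SE 0.10). All 3 genes were called under every setting.

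In the proximal membrane arm the X-linked Ndufa1 led. It was at 216.1, 200.2 and 170.0 FPKM with IL-33 and 104.5, 102.1 and 120.2 FPKM with PBS (log2 change 0.83, SE 0.11). Ndufa13, also known as GRIM-19, a complex I subunit that binds STAT3, was at 113.4, 97.6 and 84.7 FPKM against 52.0, 55.4 and 67.5 FPKM (0.75, SE 0.13). Its IL-33 libraries differed more among themselves than those of most subunits, but the groups did not overlap. Ndufc2 of the same arm was at 150.7, 140.6 and 138.7 FPKM against 77.4, 88.8 and 96.6 FPKM (0.71, SE 0.09). In the Q module, Ndufa6 was at 340.9, 324.7 and 306.1 FPKM against 169.8, 200.9 and 208.0 FPKM (0.75, SE 0.09). Ndufa7, an N-module subunit, was at 235.1, 205.2 and 193.1 FPKM against 134.3, 121.7 and 140.1 FPKM (0.67, SE 0.09). These 5 genes were also called under every setting.

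The smallest changes among accessory genes that passed were those of Ndufa12 (log2 change 0.32, SE 0.07), Ndufa5 (0.34, SE 0.11, adjusted p = 0.0302) and Ndufb3 (0.42, SE 0.08). Ndufa12 completes the N module late in assembly. Its level was 76.3, 83.2 and 82.1 FPKM with IL-33 and 62.2, 68.1 and 62.1 FPKM with PBS, a small gap without overlap. Its call was lost with equal totals (-0.01), under the 2 other scalings (0.07 and 0.08) and after correction for length and GC content (0.01). Ndufa5, in the Q module, was at 60.01, 60.4 and 58.8 FPKM against 40.8, 55.2 and 45.7 FPKM. Leaving out any single library except PBS replicate 2 ended its call (log2 change 0.24 to 0.35), as did library weights (0.25) and dropping the filter (0.34). Its change was 0.01 with equal totals, 0.16 and 0.14 under the other scalings and 0.03 after correction for length and GC content, none of which passed. Ndufb3, of the distal arm, was at 125.3, 123.3 and 107.2 FPKM against 84.1, 90.4 and 91.2 FPKM, and its call was lost under all 3 other scalings (0.08 to 0.13) and after that correction (0.11).

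Ndufs5, a proximal-arm subunit, could not be read. It was listed at 0.781, 22.7 and 0.401 FPKM with IL-33 and at 20.7, 22.5 and 0.00946 FPKM with PBS. No value lay in between: 3 libraries, drawn from both groups, were above 20 FPKM and 3 were below 1 FPKM. The log2 change of -1.04 had an SE of 1.46 and did not pass (adjusted p = 0.573). No other subunit behaved in this way.

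Mean log2 levels with IL-33 and with PBS correlated at 0.99 (Pearson) across the 35 subunits other than Ndufs5. Levels in FPKM, which is per transcript length, spanned a wide range. Ndufa3, a small membrane-arm protein, was the most abundant at 480.0 ± 23.5 FPKM with IL-33 and 318.5 ± 20.5 FPKM with PBS (mean ± SD, n = 3 per group), and it rose (log2 change 0.59, SE 0.08) except under quantile normalization (0.12, adjusted p = 0.141). Ndufa11, listed at 13.4 ± 1.56 and 8.28 ± 1.39 FPKM, was the lowest of those 35. The log2 changes of the 35 had an SD of 0.17 over genes, where the median SE of a single gene was 0.09. Across them the change correlated with mean log2 level at 0.44, with log2 transcript length at -0.41 and with GC content at 0.41 (Pearson, across genes that share the same 6 libraries).

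Libraries of 1 group differed in the same way for most subunits. IL-33 replicate 1 was the highest of its group for 27 of those 35 and IL-33 replicate 3 the lowest for 27. Among PBS libraries, replicate 3 was the highest for 26 and replicate 1 the lowest for 21. The median deviation of the subunits from the PBS mean was 0.74, 0.61 and 0.51 (log2) in IL-33 replicates 1, 2 and 3 and -0.06, -0.01 and 0.08 in the PBS replicates. The changes of single subunits are therefore not independent of one another.

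Exons of 11 subunits overlap, on the opposite strand, exons of another listed gene, such as Tfpt for Ndufa3 and Eef1b2 for Ndufs1. Without a stated strand setting their reads cannot be told apart. Of the 25 subunits with no such overlap 24 rose, the exception being Ndufs5.

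The Ndufaf genes encode factors of different steps, and none passed. Ndufaf1 belongs to the complex that builds the proximal membrane arm. It was at 9.30, 9.18 and 8.17 FPKM with IL-33 and 7.51, 10.12 and 10.01 FPKM with PBS, with overlap (log2 change -0.04, 95% interval -0.32 to 0.24, adjusted p = 0.807). Ndufaf2, a paralogue of Ndufa12 that holds its place until the last step, was at 14.9, 13.2 and 13.6 FPKM against 12.3, 16.8 and 11.3 FPKM. Its change was 0.06 (interval -0.27 to 0.39), and it passed under no setting. Ndufaf3 and Ndufaf4 act together on the Q module. Ndufaf3 had the largest change of the series, at 18.2, 15.0 and 12.9 FPKM against 13.3, 12.7 and 11.4 FPKM (log2 change 0.27, interval -0.02 to 0.56, adjusted p = 0.0972), and it was called higher without IL-33 replicate 3 (0.39, adjusted p = 0.0302). Ndufaf4 was at 3.32, 3.57 and 3.41 FPKM against 3.999, 3.64 and 3.57 FPKM. It was the only one of the 7 whose groups did not overlap, with IL-33 narrowly below PBS, an order found in 30.9% of tested genes. Its change was -0.09 (interval -0.29 to 0.10, adjusted p = 0.366).

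Ndufaf5, which hydroxylates an arginine of Ndufs7, was at 4.53, 3.48 and 3.77 FPKM with IL-33 and 3.56, 3.25 and 3.22 FPKM with PBS (log2 change 0.18, SE 0.10, adjusted p = 0.188). Cyclic loess called it higher (0.31, adjusted p = 0.0438). Ndufaf7, a methyltransferase, was at 9.70, 9.44 and 9.49 FPKM against 9.37, 10.03 and 10.65 FPKM (-0.06, SE 0.07, adjusted p = 0.503). Ndufaf6, which acts early in assembly, was at 4.58, 2.93 and 3.88 FPKM against 3.98, 4.08 and 5.07 FPKM (-0.17, SE 0.15, adjusted p = 0.348). In these 3 genes the libraries of the groups were interleaved. The sign of the change turned under at least 1 other setting for 6 of the 7 Ndufaf genes, the exception being Ndufaf6. With equal totals 4 of the 7 were called lower, Ndufaf1, Ndufaf4, Ndufaf6 and Ndufaf7 (-0.45 to -0.34), beside 50.7% of all tested genes. After correction for length and GC content 3 were, Ndufaf1, Ndufaf6 and Ndufaf7 (-0.47 to -0.25), beside 22.7% of all tested genes. The Ndufaf median lay -0.055 from that of all tested genes with equal totals and -0.222 after that correction.

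Subunits stood at higher levels than assembly factors in each library, and this distance was wider with IL-33. It does not depend on a common scaling of a library. The mean log2 FPKM of the 35 subunits other than Ndufs5 exceeded that of the 7 Ndufaf genes by 3.83, 3.92 and 3.81 in IL-33 replicates 1, 2 and 3 and by 3.24, 3.21 and 3.37 in the PBS replicates. Every IL-33 library was above every PBS library. The difference of the median changes was 0.63. It was 0.27 with quantile normalization and 0.24 with cyclic loess, which adjust values by level. Genes are not replicates and these groups also differ in level and length. By mean over the 6 libraries, 5 of the Ndufaf genes and no subunit were below 10 FPKM. In that band 14.9% of tested genes were called higher and the median change was -0.13. The difference at equal level was not tested.

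Ndufa4, the complex IV subunit, rose from 231.3, 260.3 and 263.3 FPKM with PBS to 337.5, 332.8 and 320.3 FPKM with IL-33 (log2 change 0.39, SE 0.07, adjusted p = 0.00399). Its groups did not overlap. The call was lost under all 3 other scalings (-0.02 to 0.05) and after correction for length and GC content (0.12). Ndufa4l2, the paralogue known as a target of hypoxia-inducible factor, was at 0.191 FPKM or less in each library, was listed at 0 in PBS replicate 2, and was not tested.

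Other genes that serve complex I had smaller median changes than its subunits, a difference that was not tested. Of 10 tested assembly factors outside the Ndufaf series, 3 rose and none fell (median log2 change 0.15), a share near the 28.0% of all tested genes. They were Timmdc1 (8.59 ± 0.48 FPKM with IL-33 and 7.02 ± 0.38 with PBS, log2 change 0.26, SE 0.08), Tmem126b (0.34, SE 0.11), both of the machinery that builds the membrane arm, and Nubpl (0.30, SE 0.10), which delivers iron-sulfur clusters. Ecsit and Acad9, which work with Ndufaf1, were at 0.09 and 0.10 and did not pass. Of 13 genes of iron-sulfur cluster assembly 7 rose and 1 fell (median 0.19), beside 28.0% higher and 25.5% lower over all tested genes. Glrx5, a glutaredoxin that passes clusters on, rose by 0.62 (SE 0.07), the cochaperone gene Hscb by 0.53 (SE 0.10) and Nfu1, a late cluster carrier, by 0.37 (SE 0.07).

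Genes of mitochondrial proteases and of mitochondrial biogenesis had medians near that of all genes. Over all tested genes 28.0% were called higher and 25.5% lower, and neither list reached these shares. Of 7 proteases 1 rose, Clpp (log2 change 0.38, SE 0.09), whose product removes damaged N-module proteins, and 1 fell, the inner-membrane protease gene Afg3l2 (-0.23, SE 0.07). Clpx, on the same list, was at -0.19 and did not pass (adjusted p = 0.058). Of 11 tested regulators of biogenesis 1 rose and 2 fell (median -0.09). The coactivator gene Ppargc1b rose from 1.53 ± 0.11 to 2.44 ± 0.38 FPKM (0.44, SE 0.11), while Polrmt, the mitochondrial RNA polymerase, fell by 0.37 (SE 0.09) and Gabpb1, the partner of GABPA, fell by 0.37 (SE 0.11). Ppargc1a was under 1 FPKM in all libraries and was not tested.

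Complex I did not stand alone among the nuclear-encoded subunits of the chain. All 9 tested subunits of complex III rose (median 0.70), as did all 10 of complex IV (0.71) and all 15 of ATP synthase (0.67). So did 6 of 8 genes of complex II and its assembly (0.37). In that list the 2 genes that did not pass, Sdhaf3 and Sdhaf4, encode assembly factors. Its subunit genes Sdha, Sdhb, Sdhc and Sdhd all rose (0.33 to 0.88). Uqcrq (0.89, SE 0.09), Cox8a (0.98, SE 0.08), Atp5j2 (0.80, SE 0.07) and Sdhd (0.88, SE 0.12) are examples of genes that rose. The lists of complexes III and IV and ATP synthase too are of abundant and mostly short transcripts, with median levels of 168.5 to 309.1 FPKM. Among tested genes of 100 FPKM or more, 66.3% were called higher with a median of 0.44. The complex II list had a median level of 59.4 FPKM and a median length of 2695 bases, against 2745 bases over all tested genes. Between 40 and 100 FPKM, 50.9% of tested genes were called higher with a median of 0.225. The differences between the complexes were not tested.

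**Figure D5:**
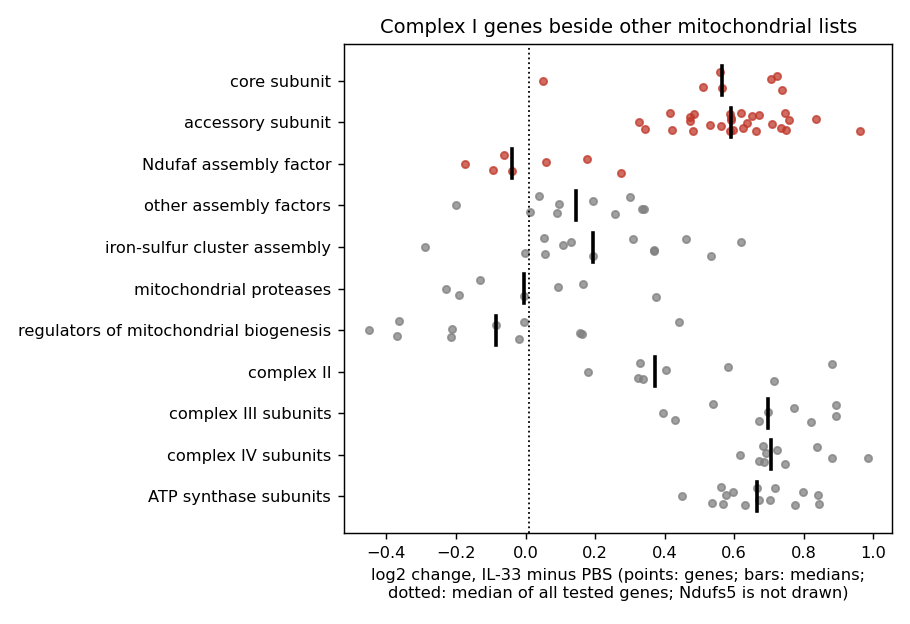
Log2 change (IL-33 minus PBS) of single genes (points) and list medians (bars) for complex I genes (red) and 8 other mitochondrial lists (grey), with the median of all tested genes dotted; Ndufs5, at -1.04, is left out. Subunit lists of complexes I, III, IV and V lie between medians of 0.56 and 0.71, and the lists of assembly factors, proteases and regulators between -0.09 and 0.15.

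Transcripts of other cell types differed between the groups as well, and in bulk RNA fewer cells of a type and less RNA per cell cannot be told apart. Over all tested genes, 28.0% were called higher and 25.5% lower. Of the tested markers, 9 of 9 of T cells and 10 of 10 of NK cells fell, with summed levels of 113 to 120 FPKM (T) and 238 to 372 FPKM (NK) with IL-33 against 246 to 422 and 608 to 788 FPKM with PBS. In contrast 6 of 8 eosinophil markers (870 to 1238 against 216 to 310 FPKM; Epx, Ear1 and Ear6 were each listed at 0 in a PBS library), 8 of 9 neutrophil markers (1220 to 2459 against 480 to 792 FPKM; Elane was listed at 0 in 1 PBS library) and 7 of 8 plasma cell markers (444 to 481 against 155 to 210 FPKM) rose. Of 10 macrophage and monocyte markers 4 rose and 1 fell (3562 to 4628 against 2244 to 3859 FPKM), and of 10 B cell markers 3 fell (370 to 500 against 337 to 819 FPKM). The shares of macrophage and monocyte markers called higher and of B cell markers called lower were not far from those over all tested genes. Of 10 cell cycle genes 6 rose and none fell. The part of these cells in the change of the complex I genes was not tested.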

How the data were processed

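RNA sequencing of 6 libraries of mouse splenic CD11c+ cells was analysed from the tables that the authors deposited, with 1 FPKM value (fragments scaled to transcript length and to the mapped fragments of the library) per gene. Per the submitters' processing notes the tools were TopHat2 2.0.13, Bowtie2 2.2.3, SAMtools 0.1.19 and Cuffnorm 2.2.1, with build mm10. The gene annotation, strand setting and scaling between libraries are not stated in the sources used here. FPKM values hold no counts, so absolute depth is unknown.

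Values were taken as log2(FPKM + 1), which understates changes of weakly expressed genes. Genes of at least 1 FPKM in at least 3 of 6 libraries were tested (11518 of 24346) with limma 3.58.1 in R 4.3.3, with a variance trend, treatment as the single term, two-sided tests and Benjamini-Hochberg adjustment over all tested genes (threshold 0.05). The shared replicate numbers were not treated as pairs. The model was tested on simulated data. A member is counted in the totals and medians but not reported by itself here. Bands of level and length were added after the data had been examined. The members, the gene lists, the motif letters and the rule for named genes (every tested core subunit and Ndufaf gene, Ndufa4 and Ndufa4l2, the 8 largest and 4 smallest changes among accessory subunits, and up to 3 genes of smallest adjusted p in each other list) were chosen with earlier results of these data known. Positions, exon overlaps, transcript length and GC content came from GENCODE M21 (GRCm38, also called mm10), and promoter sequences from RefSeq (GRCm38.p6). Alternatives were 2 other pseudocounts, 2 other filters, 3 other scalings, a correction for length and GC content, 2 other variance settings, library weights, a replicate block and leaving out each library.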

Additional observations from a re-analysis of the deposited data

How the results depend on the processing

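Over 18 alternatives, 14 left 33 to 34 subunits higher (without 1 library 33 to 34) and none lower. The others gave 22 higher and 1 lower (equal FPKM totals), 27 (quantile normalization), 28 (cyclic loess) and 24 (length and GC content removed). The subunit median was 0.252, 0.318, 0.306 and 0.29 under these, and 0.557 to 0.663 without 1 library. For the Ndufaf genes, 1 was higher with cyclic loess, 0 to 1 without 1 library (Ndufaf3, without IL-33 replicate 3), and 4 (equal totals) or 3 (length and GC content removed) were lower. Of all tested genes, 50.7% (equal totals) and 22.7% (length and GC content removed) were lower. The Ndufaf median was -0.344 (equal totals), 0.048 (quantile), 0.069 (loess), -0.243 (length and GC) and -0.069 to 0.028 without 1 library. The difference of medians was 0.271 (quantile) and 0.237 (loess). Signs turned with equal totals for Ndufs1 (-0.277), Ndufa12 (-0.011), Ndufaf2 (-0.257), Ndufaf3 (-0.044) and Ndufaf5 (-0.091). They turned after length and GC correction for Ndufaf2 (-0.243), Ndufaf3 (-0.057), Ndufaf4 (0.056) and Ndufaf5 (-0.111), and with library weights for Ndufaf2 (-0.089). With quantile normalization they turned for Ndufs1 (-0.03), Ndufaf1 (0.048) and Ndufaf7 (0.018), and with loess for Ndufs1 (-0.03), Ndufa4 (-0.02), Ndufaf1 (0.069), Ndufaf4 (0.043) and Ndufaf7 (0.036). Without 1 library, Ndufaf1 ranged from -0.164 to 0.028 and Ndufaf2 from -0.048 to 0.221. Of these turned values, that of Ndufs1 with equal totals alone passed. Of 465 values of 26 named genes under alternatives, 410 kept direction and side of the threshold, 24 lost a call in the same direction, 9 gained one and 22 turned. The cause of these shifts was not tested. With the replicate number as a block, 34 subunits were higher, no Ndufaf gene passed, and calls over all genes went from 3230 higher and 2939 lower to 2806 and 2452. Deviations of same-numbered libraries correlated at 0.075, -0.054 and 0.089, and those of differently numbered libraries at -0.113 to 0.056. These values cannot settle whether the numbers mark pairs. The labels do not say that they do, and the numbers were not taken as pairs. Weakly expressed genes, the Ndufaf genes among them, are limited by depth, which is unknown in absolute terms.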
